A study of Mus musculus with 40 samples.

Results

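The comparison described here asks whether 24 h of cold changed gene expression differently in inguinal white adipose tissue (iWAT), the subcutaneous white depot of the groin, and in interscapular brown adipose tissue (BAT) of the mouse. It rests on 20 of the 40 RNA-seq libraries of the series, 5 in each of 4 groups: iWAT of mice kept at 4 °C (cold), iWAT of mice kept at 30 °C (thermoneutral), BAT at 4 °C and BAT at 30 °C. All 4 groups came from adult wild-type C57BL/6 mice on a standard diet that had been housed at 22 °C with lights on for 12 h a day and were then exposed for 24 h. The sex of the mice, the hour of sampling and whether libraries of equal number came from 1 mouse were not given in the sources used here. For every gene the cold change of BAT, as log2 of cold over thermoneutral, was subtracted from the cold change of iWAT. A positive difference means that the change in iWAT was the more positive of the pair, and a negative difference that it was the more negative. Of the 53863 gene symbols in the count table, 17510 passed a filter on low counts and were tested.

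Brown adipocytes burn fatty acids in mitochondria that the uncoupling protein Ucp1 makes leaky, so that the energy is released as heat. Cold reaches both depots through sympathetic nerves, whose noradrenaline acts on beta-adrenergic receptors, raises cyclic AMP and starts lipolysis and the transcription of thermogenic genes. Inguinal fat of the mouse is mainly a lipid store at warmth and can gain brown-like (beige) adipocytes in the cold, while BAT is equipped for heat at any temperature.

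The libraries held between 47505182 and 84697511 counts, and levels are CPM (the count scaled to a common library size, with TMM factors). Because those factors were 1.12 to 1.48 in iWAT and 0.728 to 0.846 in BAT, levels set across the depots depend on the scaling. Errors printed after ± are the standard error (SE) of a log2 value, or the SD of 5 libraries after a level. The p-values measure the spread between these samples, since the labels do not say that each library came from a separate animal. Transcripts of the mitochondrial genome held 8.99 ± 2.37% of the counts in cold iWAT, 7.28 ± 0.894% in thermoneutral iWAT, 22.1 ± 1.83% in cold BAT and 26 ± 3.33% in thermoneutral BAT. Libraries of 1 group varied more in iWAT than in BAT, with a biological coefficient of variation of 39.5% against 24.6%.

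Several iWAT libraries stood apart in markers of other cells. The 14 lymphocyte markers, Ighm the most abundant, summed to 21.3 to 821 CPM in cold iWAT, 353 to 1661 CPM in thermoneutral iWAT, 6.39 to 29.7 CPM in cold BAT and 18.3 to 46.1 CPM in thermoneutral BAT. The highest sums were those of thermoneutral iWAT libraries 1 (1661 CPM) and 5 (968 CPM) and of cold iWAT library 4 (821 CPM). The 11 skeletal muscle markers summed to 12931 CPM in thermoneutral iWAT library 3 and to at most 100 CPM in the other thermoneutral iWAT libraries, against 2.69 to 2711 CPM in cold iWAT. The 10 adipocyte markers, with Fabp4 on top and none at 0 in any group, summed to 25528 to 38435 CPM in cold iWAT, 13442 to 22292 CPM in thermoneutral iWAT, 14293 to 17408 CPM in cold BAT and 9607 to 10922 CPM in thermoneutral BAT. The sums of cold libraries thus lay above those of thermoneutral ones in both depots, but the single markers did not all follow. Of the 10, 3 were called higher and 0 lower in cold iWAT, and 2 higher and 3 lower in cold BAT. Fabp4 alone held 11846 CPM in cold BAT and 5730 CPM in thermoneutral BAT. In pieces of whole tissue, fewer cells of a type and less RNA per cell cannot be told apart.

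**Figure D1:**
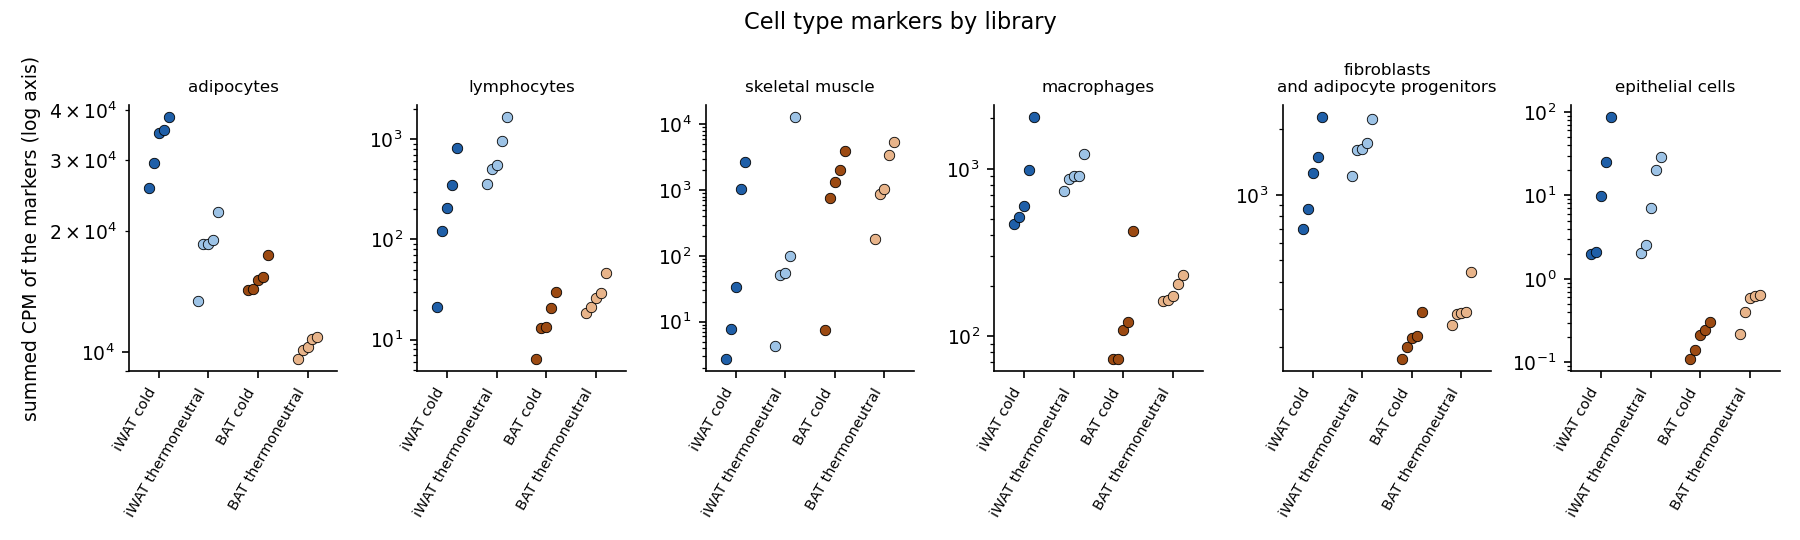
Summed CPM (log axis) of the markers of 6 cell types in each of the 20 libraries; each point is 1 library, grouped by tissue and exposure. The adipocyte sums of cold iWAT lie between 25528 and 38435 CPM, above all thermoneutral iWAT libraries, while 1 thermoneutral iWAT library reaches 12931 CPM of muscle markers.

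Cold moved far more genes in BAT than in iWAT, and most differences between the depots came from genes that were called in BAT and not in iWAT. In iWAT 3635 genes (20.8%) were called at an adjusted p under 0.05, 2419 higher (13.8%) and 1216 lower (6.94%) in the cold. In BAT 8864 genes (50.6%) were called, 4206 higher (24.0%) and 4658 lower (26.6%). The difference between the depots was called for 4741 genes (27.1%), 2693 of them positive (15.4%) and 2048 negative (11.7%). A difference of more than 2-fold was found for 1413 positive and 730 negative genes. The median size of the log2 change was 0.32 in iWAT and 0.55 in BAT. All cold libraries lay on one side of all thermoneutral ones for 11.6% of genes in iWAT and 41.9% in BAT. The median SE was 0.20 in both depots, but a common spread per gene was fitted over both, so this equality follows from the fit. With limma-voom, which weighted the groups by their own spread, 2813 genes were called in iWAT and 9780 in BAT.

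Scaling matters for the sign of these differences. The median difference over all tested genes was 0.08 with TMM scaling (-0.01 for the change in iWAT, -0.11 in BAT) and -0.10 with library totals alone. With library totals 1736 differences were positive and 2829 negative, so that 38.0% of called differences were positive, against 56.8% with TMM, and iWAT had 1323 genes higher and 2120 lower. The count of genes lower in cold iWAT also hung on single libraries: it was 753, 780 and 805 without cold iWAT library 1, 2 or 5, and 1906 without cold iWAT library 4.

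Of the 4741 genes with a called difference, 1908 (40.2%) were lower in cold BAT and not called in iWAT, and 1375 (29.0%) were higher in cold BAT and not called in iWAT. A further 463 genes (9.77%) rose in both depots with the smaller rise in iWAT, and 199 fell in both with the smaller fall in iWAT. Changes called in iWAT and not in BAT made up 295 positive and 95 negative differences. Opposite calls were found for 163 genes higher in cold iWAT and lower in cold BAT, and for 60 genes lower in cold iWAT and higher in cold BAT. Rises in both depots with the larger one in iWAT were found for 23 genes, Ucp1 among them, and Csrp1 alone fell in both with the larger fall in iWAT. Among the 2594 genes called in both depots, 2371 (91.4%) moved in the same direction. Across all 17510 genes the log2 changes of the depots had a Pearson r of 0.46, and of 0.56 across the 9705 genes with at least 10 CPM in a group. Genes are not independent replicates, and these values describe the 20 libraries only.

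**Figure D2:**
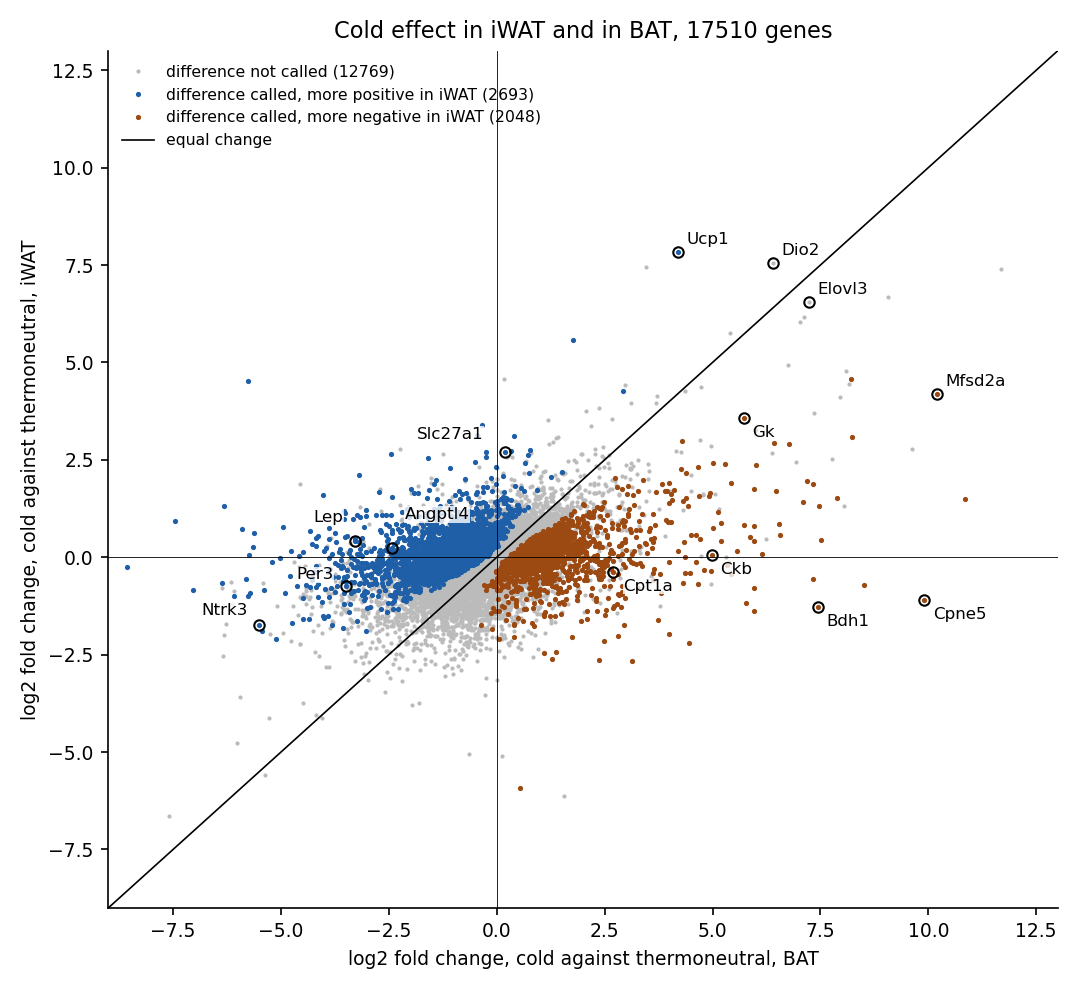
Log2 fold change of cold against thermoneutral in iWAT (vertical axis) and in BAT (horizontal axis) for 17510 genes, coloured by the called sign of the difference; the diagonal marks equal change. Most coloured genes spread along the horizontal axis, Ucp1 lies above the diagonal, and Cpne5, Bdh1 and Ckb lie far to the right, at iWAT changes of -1.10, -1.29 and 0.05.

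Ucp1 itself showed the larger fold change in iWAT and the larger gain of transcript in BAT. Ucp1 had 244, 900, 60.6, 131 and 867 CPM in the 5 cold iWAT libraries, against 5.78, 1.20, 1.31, 0.868 and 0.529 CPM in thermoneutral iWAT. In BAT it had 12547, 15006, 17184, 16239 and 15710 CPM in the cold, against 524, 1170, 950, 987 and 499 CPM at thermoneutrality. Cold and thermoneutral libraries did not overlap in either depot, and the iWAT libraries spread over more than a decade in the cold. The log2 change was 7.83 ± 0.86 in iWAT and 4.21 ± 0.72 in BAT, a difference of 3.61 ± 0.93, adjusted p = 0.00716. In CPM the mean rose by 438 in iWAT and by 14511 in BAT, so the order of the depots is reversed on the linear scale. Such a reversal between the log2 and the CPM scale was found for 64 of the called differences (1.35%), 60 of them positive on the log2 scale. The thermoneutral mean of iWAT rests in part on library 1 with 5.78 CPM, while the other 4 libraries held 0.529 to 1.31 CPM.

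The remaining genes of the thermogenic programme fell to either side. Of 24 tested members, 4 had a positive and 3 a negative called difference. That share of 29.2% was near the 27.1% of all tested genes. The median difference was 0.19, with median changes of 1.19 in iWAT and 1.11 in BAT. Beside Ucp1 the positive ones were 3 genes that rose in iWAT and were not called in BAT: Cox8b, a subunit of cytochrome oxidase typical of brown fat (1.73 ± 0.34, adjusted p = 9.44e-04), Ppargc1b, a coactivator of mitochondrial genes (1.43 ± 0.29), and Ppara, the fatty acid receptor that drives oxidation genes (1.53 ± 0.37). The negative ones rose in BAT by more. Ppargc1a, the coactivator of mitochondrial biogenesis, changed by 1.59 in iWAT and 3.15 in BAT (difference -1.56 ± 0.40, adjusted p = 0.00696). Gk, glycerol kinase, which re-uses the glycerol of lipolysis, changed by 3.57 in iWAT and 5.72 in BAT (difference -2.15 ± 0.47, adjusted p = 0.00229). The third was Kcnk3, a potassium channel, which changed by 0.15 in iWAT and 1.5 in BAT and was not called in iWAT.

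For Dio2, the deiodinase that activates thyroid hormone within the cell, both depots rose steeply, by 7.54 in iWAT and 6.41 in BAT. The difference of 1.13 ± 0.69 missed the threshold (adjusted p = 0.251), and its 95% interval of -0.32 to 2.59 is too wide to call the responses alike. Elovl3, which elongates fatty acids in cold-exposed fat, rose by 6.54 in iWAT and 7.23 in BAT with an interval of the difference of -2.93 to 1.54 (adjusted p = 0.690). Fgf21, a hormone of fasting and cold, had 0.245 ± 0.197 CPM in cold iWAT and 0.0730 ± 0.0879 CPM in thermoneutral iWAT, against 6.07 ± 8.99 CPM in cold BAT and 0.266 ± 0.249 CPM in thermoneutral BAT, and its difference of -2.79 ± 1.44 was not called (adjusted p = 0.166).

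Counting only called genes that reached 10 CPM in a group mean and whose cold and thermoneutral libraries did not overlap in 1 depot or both, the 8 largest negative differences belonged to genes that rose in BAT, some of them nearly silent there at thermoneutrality. Cpne5, a copine that binds membranes when calcium is present, led them. In iWAT, Cpne5 had 0, 0.220, 0.0656, 0.359 and 0.224 CPM in the cold, against 0.796, 0.258, 0.270, 0.0980 and 0.453 CPM at thermoneutrality. The values of BAT were 17.5, 27.1, 47.7, 39.8 and 34.0 CPM in the cold, against 0.0213, 0.0182, 0.0312, 0 and 0.104 CPM at thermoneutrality. BAT libraries did not overlap and iWAT libraries did, with a difference of -11.01 ± 0.98, adjusted p = 4.26e-07. The thermoneutral BAT values correspond to 0 to 4 counts per library, so the size of the BAT change is known only roughly.

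Bdh1, the mitochondrial enzyme that interconverts the ketone bodies 3-hydroxybutyrate and acetoacetate, showed the same order of groups. Bdh1 had 0.353, 0.393, 0.164, 1.81 and 1.10 CPM in the 5 cold iWAT libraries, against 4.24, 1.43, 0.994, 0.700 and 2.01 CPM in thermoneutral iWAT. Cold BAT had 39.2, 28.3, 49.3, 106 and 114 CPM, against 0.213, 0.255, 0.593, 0.312 and 0.546 CPM in thermoneutral BAT. All cold BAT libraries lay above all others, and in iWAT the groups overlapped (difference -8.73 ± 0.92, adjusted p = 2.23e-06). Mfsd2a, a transporter of lysophospholipids, rose in both depots. In iWAT, Mfsd2a had 7.76, 5.16, 0.984, 2.46 and 17.0 CPM in the cold, against 0.378, 0.395, 0.221, 0.616 and 0.239 CPM at thermoneutrality. For BAT the levels were 77.1, 89.0, 145, 198 and 170 CPM in the cold, against 0.107, 0.128, 0.0468, 0.268 and 0.0260 CPM in the thermoneutral libraries. The groups were apart in each depot, with changes of 4.18 in iWAT and 10.20 in BAT and a difference of -6.02 ± 0.97, adjusted p = 1.70e-04.

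Ckb, the brain-type creatine kinase, is a part of the creatine cycle that dissipates energy in fat. Ckb had 18.8, 28.2, 41.6, 30.9 and 37.6 CPM in the 5 cold iWAT libraries, against 22.1, 29.0, 33.3, 34.3 and 33.4 CPM in thermoneutral iWAT. In BAT it had 754, 1022, 1094, 1131 and 1313 CPM in the cold, against 34.2, 32.6, 29.6, 22.5 and 49.4 CPM at thermoneutrality. The depots overlapped at thermoneutrality, and only the cold BAT libraries were high: the change was 0.05 in iWAT and 4.98 in BAT, a difference of -4.93 ± 0.32, adjusted p = 5.27e-08, with an iWAT interval of -0.40 to 0.50. The other 4 of these 8 genes were Fgf9, a growth factor (-5.86 ± 0.60), Lrrc52, an accessory subunit of potassium channels (-5.15 ± 1.37), Gmpr, GMP reductase of purine metabolism (-4.32 ± 0.83), and St3gal5, which makes the ganglioside GM3 (-4.26 ± 0.38). Lrrc52 averaged 0.197 CPM in cold iWAT and 0.0205 CPM in thermoneutral iWAT, and its difference was not called without thermoneutral iWAT library 3 or in a fit of all 40 libraries.

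By the same limits of level and overlap, the 8 largest positive differences came from genes that fell in BAT, while in iWAT 1 of them rose, 1 fell and 6 were not called. Lep encodes leptin, the hormone by which fat reports its stores. In iWAT, Lep had 694, 462, 435, 260 and 173 CPM in the cold, against 128, 321, 427, 476 and 158 CPM at thermoneutrality. The values of BAT were 12.0, 10.2, 5.35, 9.0 and 3.52 CPM in the cold, against 45.6, 62.4, 118, 112 and 53.9 CPM at thermoneutrality. Every cold BAT library lay below every thermoneutral one, and the iWAT groups overlapped, with changes of 0.42 in iWAT and -3.29 in BAT and a difference of 3.71 ± 0.63, adjusted p = 2.63e-04. Ntrk3, a neurotrophin receptor, fell in both depots and further in BAT. Ntrk3 had 9.26, 9.83, 7.59, 8.07 and 7.93 CPM in the 5 cold iWAT libraries, against 23.7, 33.5, 32.5, 32 and 21.6 CPM in thermoneutral iWAT. Cold BAT had 3.54, 12.4, 7.32, 5.71 and 13.6 CPM, against 411, 455, 331, 425 and 305 CPM in thermoneutral BAT. The depots differed at thermoneutrality and overlapped in the cold, and the difference of the changes was 3.75 ± 0.38, adjusted p = 1.71e-06.

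The other 6 genes were led by Acsm3. This medium-chain acyl-CoA synthetase had a difference of 4.47 ± 0.56, adjusted p = 1.27e-05 and changes of 0.30 in iWAT and -4.18 in BAT. Sctr, the secretin receptor, had a difference of 4.36 ± 0.39, and Hcar2, a receptor for 3-hydroxybutyrate and niacin that restrains lipolysis, of 3.87 ± 0.45. Hcar2 stood at 28.1 ± 7.67 CPM in cold iWAT and 28.2 ± 8.50 CPM in thermoneutral iWAT, against 0.709 ± 0.209 CPM in cold BAT and 10.4 ± 5.22 CPM in thermoneutral BAT. Svep1, an extracellular matrix protein, rose in iWAT (1.21) and fell in BAT (-3.03). Snhg11, a long non-coding RNA (3.89 ± 0.48), and Acat3, an acetyl-CoA acetyltransferase whose counts may be shared with its close paralog Acat2 (4.31 ± 0.66), were the others.

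**Figure D3:**
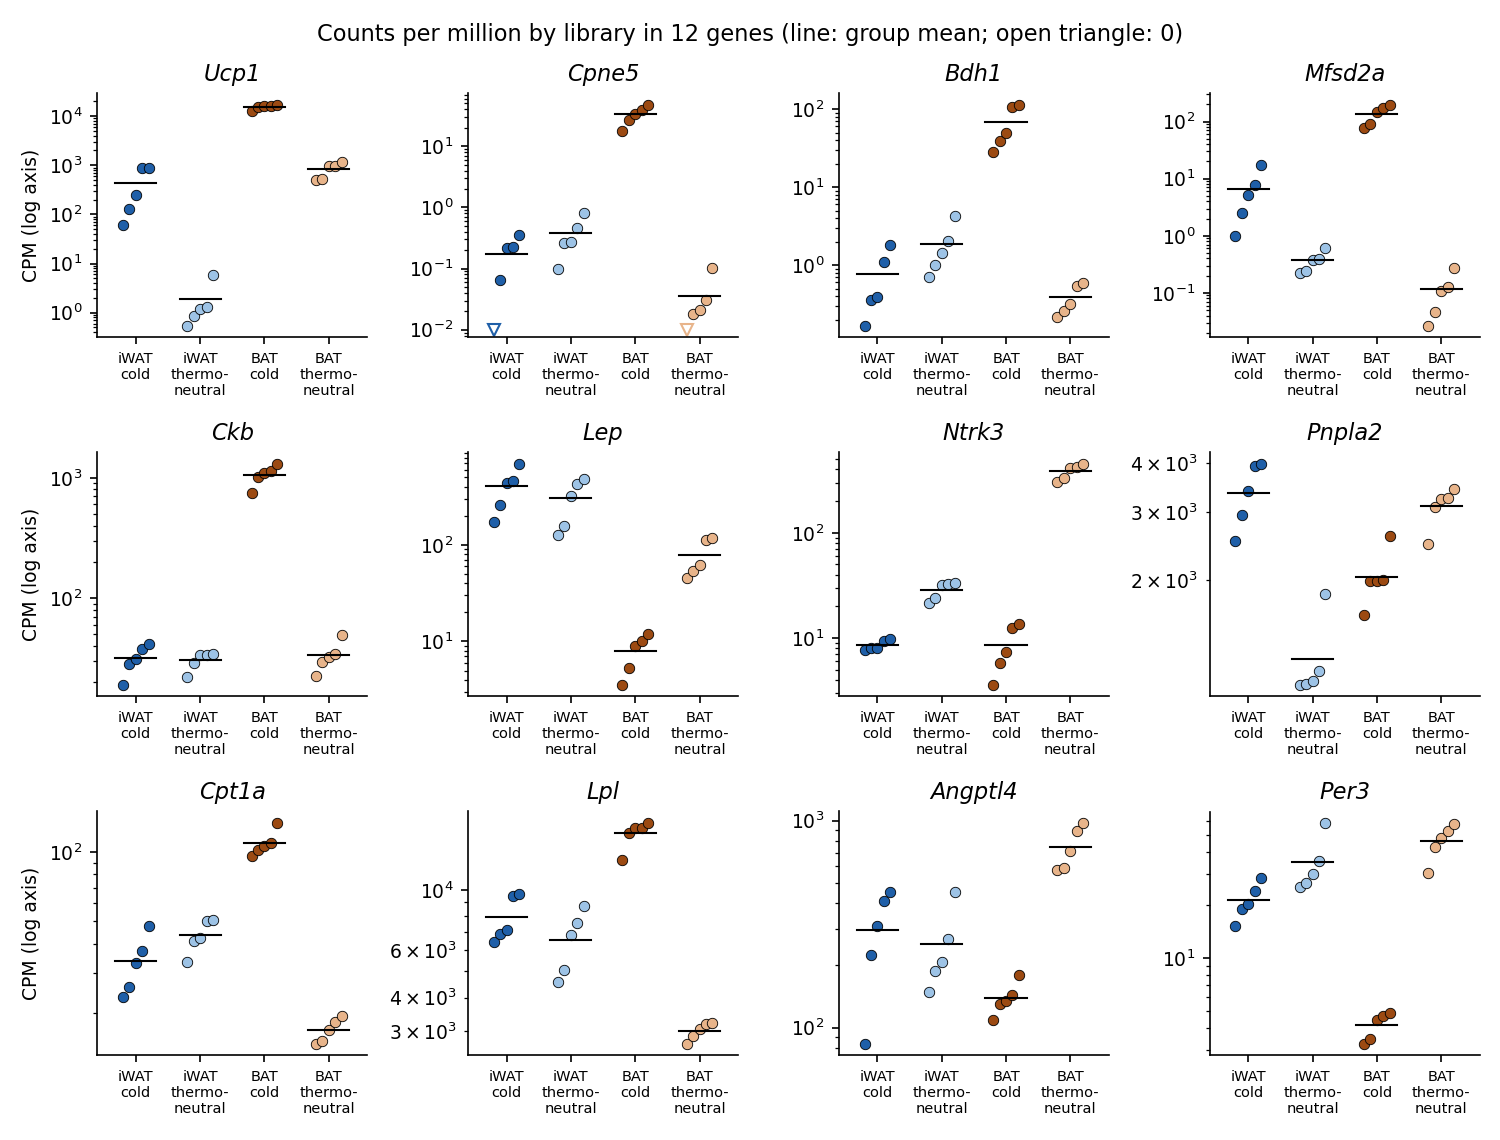
CPM (log axis) of 12 genes in each library, from left to right in cold iWAT, thermoneutral iWAT, cold BAT and thermoneutral BAT; each point is 1 library, the line is the mean of 5 and an open triangle stands for 0. Cpne5, Bdh1 and Ckb are high in cold BAT alone, and Lep is low in cold BAT alone, at 3.52 to 12.0 CPM.

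Of the 163 genes higher in cold iWAT and lower in cold BAT, the 8 of smallest p had differences between 0.81 and 3.42. Car3, a carbonic anhydrase abundant in white fat, was the most highly expressed. In iWAT, Car3 had 14095, 19091, 13175, 15475 and 14309 CPM in the cold, against 6828, 9544, 10609, 10374 and 9184 CPM at thermoneutrality. For BAT the levels were 377, 666, 662, 624 and 490 CPM in the cold, against 4644, 3411, 3721, 3274 and 3433 CPM in the thermoneutral libraries. Cold and thermoneutral libraries were apart in both depots and on opposite sides, with a difference of 3.42 ± 0.25, adjusted p = 6.51e-08. Its opposite calls were lost with limma-voom, in a fit of all 40 libraries and without the 3 lymphocyte-rich iWAT libraries. Both calls held under all 31 alternatives for 4 others. They were Agmo, which cleaves ether lipids (changes of 0.53 in iWAT and -2.18 in BAT), Adcyap1r1, the receptor of the neuropeptide PACAP (1.72 in iWAT and -1.57 in BAT), Mgst3, a microsomal glutathione S-transferase (1.02 in iWAT and -2.03 in BAT), and Fkbp9, a prolyl isomerase of the endoplasmic reticulum (0.62 in iWAT and -1.01 in BAT). Fmo5, Tspan14 and Fbxl20 left the class with library totals, among other settings.

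Of the 60 genes lower in cold iWAT and higher in cold BAT, Lamb3, a laminin chain of basement membranes, had the smallest p. It changed by -0.90 in iWAT and 2.91 in BAT, with a difference of -3.81 ± 0.28, adjusted p = 7.37e-08. Rap1gap2, a GTPase-activating protein of Rap1, changed by -1.32 in iWAT and 0.64 in BAT, and both genes kept their calls under all 31 alternatives. Fhdc1, a formin (-0.98 in iWAT and 2.84 in BAT), Aven, an inhibitor of apoptosis (-0.29 in iWAT and 1.24 in BAT), and Cad, which starts pyrimidine synthesis (-0.38 in iWAT and 1.57 in BAT), moved the same way. Calr, calreticulin, a chaperone of the endoplasmic reticulum, is the most highly expressed of the 8. Calr had 284, 330, 267, 252 and 272 CPM in the 5 cold iWAT libraries, against 410, 376, 344, 327 and 309 CPM in thermoneutral iWAT. In BAT it had 487, 424, 457, 406 and 397 CPM in the cold, against 237, 211, 215, 206 and 200 CPM at thermoneutrality. BAT libraries were apart and iWAT libraries overlapped, and the gene left the class without cold iWAT library 4, without thermoneutral iWAT library 1 and in 4 other settings. Cad left it in 21 of 31. The sizes of both opposite classes depended on scaling and on single libraries. The class higher in iWAT held 81 genes with library totals and 102 without thermoneutral iWAT library 1. The class lower in iWAT held 150 with library totals, 38 and 37 without cold iWAT library 1 or 2, and 97 and 105 without cold iWAT library 3 or 4.

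Equal responses could be shown for few genes. A change of at least 2-fold in both depots with a 95% interval of the difference inside ±0.5 on the log2 scale was found for 8 genes, out of 483 that changed at least 2-fold in the same direction in both. The median SE of the difference over all tested genes was 0.28, and at that SE the interval is wider than ±0.5 even around no difference. The count of 8 therefore depends on precision and does not measure how common equal responses were. Rgs5, a regulator of G protein signalling known from pericytes, had the narrowest interval. In iWAT, Rgs5 had 61.2, 76.1, 83.8, 79.8 and 69.8 CPM in the cold, against 133, 168, 166, 210 and 184 CPM at thermoneutrality. The values of BAT were 216, 194, 194, 165 and 186 CPM in the cold, against 476, 495, 456, 425 and 444 CPM at thermoneutrality. Cold libraries lay below thermoneutral ones in both depots, by -1.22 in iWAT and -1.27 in BAT, and the interval of the difference was -0.28 to 0.38. The 7 markers of smooth muscle and pericytes summed to 196 to 256 CPM in cold iWAT and 298 to 414 CPM in thermoneutral iWAT. The sums of BAT were 343 to 409 CPM in the cold and 614 to 752 CPM at thermoneutrality. Rgs5 is itself in these sums, as the most abundant of the 7, so they are no separate measure of these cells. By single markers, 0 were called higher and 1 lower in cold iWAT, and 2 higher and 2 lower in cold BAT. The part of these cells in the fall of Rgs5 was not tested.

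Of the 5 others with at least 10 CPM, all of which rose, 3 serve mitochondria. Ndufaf4, an assembly factor of respiratory complex I, rose by 1.51 in iWAT and 1.55 in BAT, Tbrg4, a regulator of mitochondrial RNA, by 1.22 in iWAT and 1.20 in BAT, and Timm9, a chaperone of protein import into mitochondria, by 1.08 in iWAT and 1.18 in BAT. Sephs2, which makes selenophosphate for selenoproteins, rose by 1.27 in iWAT and 1.28 in BAT, and Cyyr1 by 1.09 in iWAT and 1.14 in BAT. Membership of this class was unsteady for some of them. Under 31 alternatives Rgs5 and Tbrg4 stayed in it in 30 and Sephs2 in 28. Timm9 stayed in 18, Cyyr1 in 17 and Ndufaf4 in 16, and these left it with DESeq2 among other settings. The class held 4 genes without cold iWAT library 1, without thermoneutral iWAT library 5 or without cold BAT library 3, 5 without thermoneutral iWAT library 1 and 15 without cold iWAT library 3. Among the genes known to respond to low temperature, Rbm3, an RNA-binding protein, rose by 0.81 in iWAT and 0.81 in BAT with an interval of the difference of -0.64 to 0.64. Its relative Cirbp was not called in iWAT (0.13) and fell in BAT (-1.09), a difference of 1.22 ± 0.20, adjusted p = 2.14e-04.

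**Figure D4:**
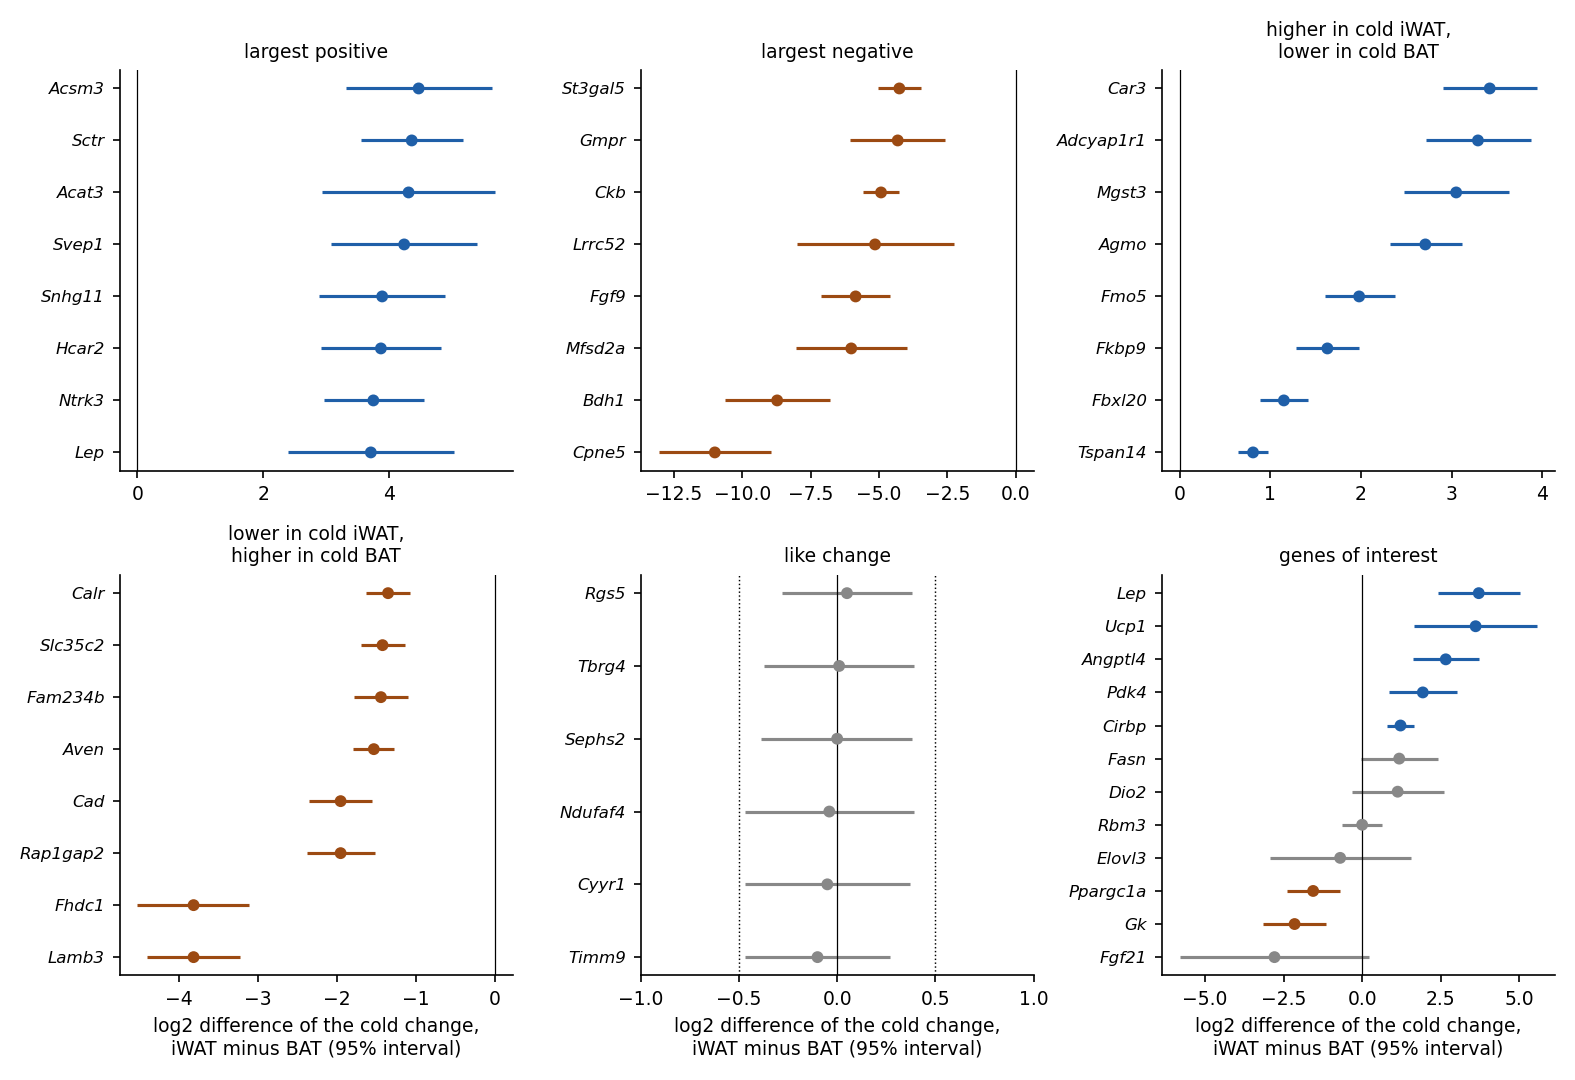
Difference of the log2 cold change, iWAT minus BAT, with its 95% interval for the named genes of 6 groups; blue is called positive, brown called negative and grey not called, and the dotted lines in the like-change panel mark ±0.5. Cpne5 reaches -11.01 and Acsm3 4.47, while the intervals of the 6 like-changed genes lie inside the dotted lines.

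Most genes of mitochondrial oxidation rose in iWAT, and fewer of them rose in BAT. Of 30 nuclear genes of oxidative phosphorylation, 17 had a positive called difference and 0 a negative one (25 at an unadjusted p under 0.05 in either direction), against 15.4% and 11.7% of all tested genes. In iWAT 23 rose and 0 fell, and in BAT 3 rose and 3 fell, with median changes of 0.57 in iWAT and -0.06 in BAT. Ndufs3, a subunit of complex I, rose in iWAT (0.55) and fell in BAT (-0.46), with a difference of 1.01 ± 0.21, adjusted p = 0.00137. Sdhb, a subunit of complex II, changed by 0.57 in iWAT and -0.31 in BAT (difference 0.88 ± 0.22, adjusted p = 0.00486), and Cyc1, cytochrome c1 of complex III, by 0.88 in iWAT and -0.03 in BAT. The count of positive differences was 11 without thermoneutral iWAT library 1 or 5, 11 without the 3 lymphocyte-rich libraries together and 12 with library totals.

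The citric acid cycle, which shares Sdha and Sdhb with that list, had 11 of 17 genes positive and 0 negative. That share of 64.7% stood against 27.1% of all tested genes. The median changes were 0.56 in iWAT and -0.23 in BAT. Idh3b, a subunit of isocitrate dehydrogenase, changed by 0.49 in iWAT and -0.41 in BAT (difference 0.90 ± 0.18, adjusted p = 9.09e-04), and Idh2, its NADP-dependent relative, fell in both depots and by less in iWAT (-0.48 in iWAT and -1.52 in BAT).

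Of the 13 mitochondrially encoded proteins, 9 had a positive and 0 a negative called difference, with a median difference of 1.12. That share of 69.2% stood against 27.1% of all tested genes. In iWAT 4 rose and 0 fell, and in BAT 0 rose and 9 fell. In a fit of all 40 libraries 5 were positive. For mt-Atp6, a subunit of ATP synthase, the change was 0.60 in iWAT and -1.18 in BAT (difference 1.79 ± 0.35, adjusted p = 8.65e-04), and for mt-Nd4l, a subunit of complex I, it was 0.47 in iWAT and -0.86 in BAT (difference 1.33 ± 0.24, adjusted p = 4.62e-04). Proteins of the mitochondrial ribosome followed only in part. Of 24 genes, 4 were positive and 2 negative, a share of 25.0%, near the 27.1% of all tested genes. The median difference was 0.04, although 17 rose in iWAT and 11 in BAT. With library totals 2 were positive and 5 negative, at a median of -0.13. Mrps9 was positive (0.71 ± 0.13) and Mrpl20 negative (-0.87 ± 0.24).

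Fatty acid oxidation had 12 of 24 genes positive and 2 negative, with 20 risen in iWAT and 13 risen and 5 fallen in BAT. Called differences made up 58.3% of the list, against 27.1% of all tested genes. Acadl, the long-chain acyl-CoA dehydrogenase, rose in iWAT (1.54) and was not called in BAT (0.15), a difference of 1.39 ± 0.23, adjusted p = 2.30e-04. Eci1, an isomerase for unsaturated fatty acids, rose in iWAT (0.72) and fell in BAT (-0.85). Cpt1b, the muscle form of the carnitine palmitoyltransferase that admits fatty acids to mitochondria, had a difference of 1.90 ± 0.54. Its liver form Cpt1a went the other way. Cpt1a had 33.2, 37.2, 47.7, 26.1 and 23.6 CPM in the 5 cold iWAT libraries, against 50.4, 41.2, 33.5, 50.5 and 42.6 CPM in thermoneutral iWAT. Cold BAT had 134, 106, 95.9, 109 and 102 CPM, against 19.5, 17.0, 14.7, 18.4 and 15.2 CPM in thermoneutral BAT. BAT was apart and iWAT overlapped, with a difference of -3.07 ± 0.23, adjusted p = 7.37e-08. Ehhadh, a peroxisomal enzyme of the pathway, was the other negative member (-2.53 ± 0.51).

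Beside these 4 oxidation lists stood the lymphocyte sums of the iWAT libraries given above, and the adipocyte marker sums. The adipocyte sums were higher in the cold in both depots, while 2 of the 10 markers were called higher and 3 lower in cold BAT. The part of the adipocyte sums in the differences was not tested. For lymphocytes, a fit with a lymphocyte covariate was among the alternatives, but its counts for these lists are not given here. Without the 3 lymphocyte-rich libraries, positive differences numbered 8 of 17 for the citric acid cycle and 7 of 13 for mitochondrially encoded proteins. For fatty acid oxidation they numbered 11 of 24.

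**Figure D5:**
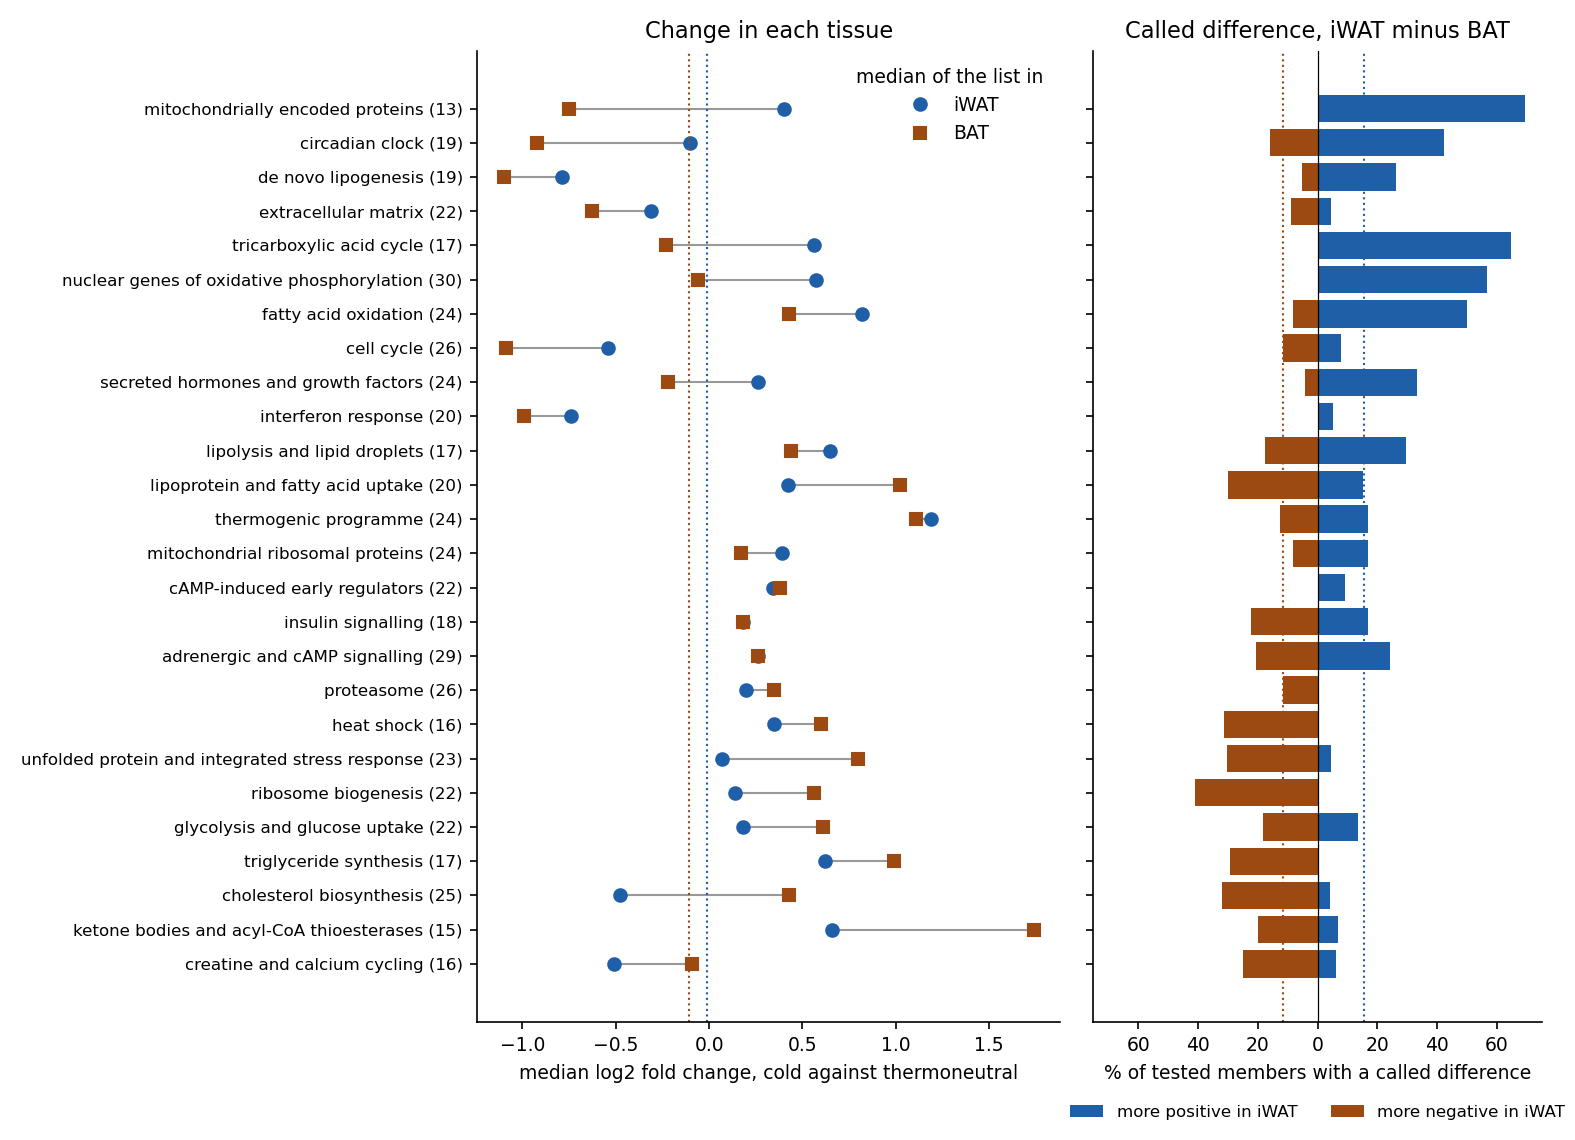
Left, the median log2 change of cold against thermoneutral in iWAT (circles) and BAT (squares) for 26 gene lists, with dotted lines at the medians of all tested genes; right, the share of tested members with a called difference, positive to the right and negative to the left, with dotted lines at the shares of all tested genes (15.4% and 11.7%). The mitochondrial lists have no negative bar except fatty acid oxidation and the mitochondrial ribosome, and ribosome biogenesis, heat shock, triglyceride synthesis and proteasome have no positive one.

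For uptake of lipid from the blood, Lpl, lipoprotein lipase, cuts fatty acids from circulating triglyceride. In iWAT, Lpl had 6854, 9681, 6432, 7118 and 9501 CPM in the cold, against 4550, 6838, 7531, 8745 and 5072 CPM at thermoneutrality. For BAT the levels were 12884, 16346, 17051, 17014 and 17794 CPM in the cold, against 3207, 3052, 2684, 2883 and 3188 CPM in the thermoneutral libraries. BAT was apart and iWAT overlapped, a difference of -2.16 ± 0.25, adjusted p = 5.59e-06. Angptl4, which inhibits that enzyme, fell in BAT. Angptl4 had 309, 410, 454, 83.0 and 223 CPM in the 5 cold iWAT libraries, against 208, 450, 148, 187 and 268 CPM in thermoneutral iWAT. In BAT it had 179, 135, 143, 130 and 109 CPM in the cold, against 978, 888, 576, 591 and 709 CPM at thermoneutrality. Here too BAT was apart and iWAT overlapped, with a difference of 2.66 ± 0.50, adjusted p = 6.72e-04. Slc27a1, the fatty acid transporter FATP1, rose in iWAT to 1454 ± 258 CPM, against 223 ± 33.5 CPM at thermoneutrality, and stood at 139 ± 10.1 CPM in cold BAT and 122 ± 14.3 CPM in thermoneutral BAT. Its difference was 2.53 ± 0.19, adjusted p = 7.37e-08. Acsl5, an acyl-CoA synthetase, had a difference of -2.51 ± 0.31, adjusted p = 1.05e-05 with a rise called in BAT only. In the list of 20 uptake genes 3 differences were positive and 6 negative, a share of 45.0% against 27.1% of all tested genes.

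For lipolysis, Pnpla2 encodes adipose triglyceride lipase, the first enzyme of the path. In iWAT, Pnpla2 had 3997, 3940, 2517, 2941 and 3391 CPM in the cold, against 1071, 1838, 1168, 1080 and 1096 CPM at thermoneutrality. The values of BAT were 1624, 1986, 1997, 2596 and 1994 CPM in the cold, against 3238, 3259, 3080, 2476 and 3435 CPM at thermoneutrality. Cold lay above thermoneutral throughout in iWAT and mostly below it in BAT, with called changes of 1.42 in iWAT and -0.60 in BAT and a difference of 2.03 ± 0.25, adjusted p = 9.95e-06. In thermoneutral iWAT, library 2 stood above the other 4. Lipe, hormone-sensitive lipase, had 0.43 in iWAT, not called, and fell in BAT (-0.52, difference 0.95 ± 0.23, adjusted p = 0.00404). Cidec, a protein of large lipid droplets, rose in both and more in iWAT (1.34 in iWAT and 0.47 in BAT), the difference not being called in a fit of all 40 libraries (adjusted p = 0.346). Plin2, a droplet coat protein, was called in BAT and not in iWAT (0.41 in iWAT and 2.25 in BAT, difference -1.84 ± 0.41, adjusted p = 0.00241). Of the 17 genes of lipolysis and lipid droplets, 5 were positive and 3 negative, a share of 47.1% against 27.1% of all tested genes. The negative count was 1 without cold iWAT library 1, thermoneutral iWAT library 3 or 4, cold BAT library 2, 3 or 4, or thermoneutral BAT library 5, and 5 with library totals.

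Triglyceride synthesis had 0 positive and 5 negative differences among 17 genes and median changes of 0.62 in iWAT and 0.99 in BAT. The called share of 29.4% was near the 27.1% of all tested genes (15.4% positive and 11.7% negative). In iWAT 9 rose and 1 fell, where 13.8% of all tested genes were higher and 6.94% lower. In BAT 11 rose and 0 fell, against 24.0% and 26.6% of all tested genes. Agpat1, which adds the second fatty acid to glycerol 3-phosphate, changed by 0.50 in iWAT and 1.24 in BAT (difference -0.73 ± 0.15, adjusted p = 0.00165), Gpam, which adds the first, by 1.05 in iWAT and 1.99 in BAT (difference -0.93 ± 0.27, adjusted p = 0.0152), and Dgat1, which adds the last, by 1.36 in iWAT and 2.00 in BAT. In a fit of all 40 libraries the difference of Gpam was not called (adjusted p = 0.144). Without the 3 lymphocyte-rich libraries, and likewise with library totals, 9 were negative.

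Of 19 genes of de novo lipogenesis, 8 were lower and 1 higher in cold iWAT, where 6.94% of all tested genes were lower and 13.8% higher. In cold BAT 12 were lower and 2 higher, against 26.6% and 24.0% of all tested genes. Their cold change differed between the depots in 6 of them (31.6%), near the 27.1% of all tested genes. For Fasn, fatty acid synthase, the changes were -1.19 in iWAT and -2.37 in BAT, and the interval of the difference was -0.05 to 2.40 (adjusted p = 0.149, and 0.00434 in a fit with a replicate block). Pnpla3, a lipase relative induced by feeding, was not called in iWAT (-0.27) and fell in BAT (-3.14), a difference of 2.87 ± 0.39, adjusted p = 3.56e-05. Elovl6, which elongates palmitate to stearate, was lower in cold iWAT (-1.51), like most called members of the list. In cold BAT it was higher (1.23), against most of them, a difference of -2.73 ± 0.59, adjusted p = 0.00214. The 5 positive differences of the list fell to 2 or 3 on leaving out cold iWAT library 4 or 5, thermoneutral iWAT library 1 or 5, cold BAT library 1, 2 or 3, or thermoneutral BAT library 3 or 4, and to 1 without the 3 lymphocyte-rich libraries.

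For the use of glucose, Pfkp, a phosphofructokinase, had 0.06 in iWAT, not called, and rose in BAT (1.82), a difference of -1.76 ± 0.21, adjusted p = 8.52e-06, and Hk1, a hexokinase, fell in iWAT (-0.47) and rose in BAT (1.19). Pdk4, which holds back the oxidation of pyruvate, rose in iWAT (2.08) and was not called in BAT (0.15), a difference of 1.93 ± 0.52, adjusted p = 0.00999. Of the 22 genes of glycolysis and glucose uptake, 3 were positive and 4 negative, a share of 31.8% against 27.1% of all tested genes. The negative count was 8 with library totals, 7 without cold iWAT library 5 and 2 without thermoneutral BAT library 5.

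Cholesterol synthesis had 1 positive and 8 negative differences among 25 genes, with median changes of -0.48 in iWAT and 0.43 in BAT. The called share was 36.0%, against 27.1% of all tested genes (15.4% positive and 11.7% negative). In iWAT 1 rose and 6 fell, where 13.8% of all tested genes were higher and 6.94% lower. In BAT 11 rose and 5 fell, against 24.0% and 26.6% of all tested genes. Srebf2, the transcription factor that controls the pathway, fell in iWAT (-0.87) and rose in BAT (0.46), a difference of -1.33 ± 0.24, adjusted p = 4.23e-04. Stard4, which carries cholesterol within the cell, changed by -0.66 in iWAT and 0.43 in BAT (difference -1.08 ± 0.22, adjusted p = 0.00122). Fdft1, squalene synthase, was the positive member and fell in both depots (-0.91 in iWAT and -2.34 in BAT).

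For protein quality control and ribosome assembly, the counts stand beside those of all tested genes, of which 13.8% were higher in cold iWAT, 24.0% were higher in cold BAT and 11.7% had a negative difference. The unfolded protein and integrated stress response had 1 positive and 7 negative differences among 23 genes, with 3 risen and 4 fallen in iWAT and 11 risen and 2 fallen in BAT. Canx, calnexin, a chaperone of glycoproteins, changed by -0.03 in iWAT and 1.07 in BAT (difference -1.10 ± 0.11, adjusted p = 1.82e-06), Eif2ak3, the stress kinase PERK, by -0.30 in iWAT and 0.66 in BAT and Sdf2l1, a cofactor of the chaperone BiP, by -0.99 in iWAT and 1.87 in BAT. Asns, asparagine synthetase, was the positive member (1.26 ± 0.24), and 5 were positive without cold BAT library 1. Of 22 genes of ribosome biogenesis 0 were positive and 9 negative, 5 having risen in iWAT and 15 in BAT. Nop2, a methyltransferase of ribosomal RNA, rose in both (0.43 in iWAT and 1.51 in BAT), and Polr1a, the largest subunit of RNA polymerase I, likewise (0.41 in iWAT and 0.96 in BAT), each by less in iWAT. Heat shock genes had 0 positive and 5 negative differences among 16, Hspa4, a nucleotide exchange factor, among them (-0.92 ± 0.16, adjusted p = 2.95e-04). That count was 3 without cold iWAT library 2, thermoneutral iWAT library 3, cold BAT library 1 or thermoneutral BAT library 1 or 5. The proteasome had 0 positive and 3 negative among 26, with 5 risen in iWAT and 15 in BAT. Its share of negative differences, 11.5%, was close to the 11.7% of all tested genes. As it had no positive ones, its share in either direction lay below the 27.1% of all tested genes. With library totals 7 were negative.

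In adrenergic signalling, the main receptor of mouse fat, Adrb3, changed by -1.01 in iWAT and -1.34 in BAT, with an interval of the difference of -0.55 to 1.22. Adcy3, an adenylyl cyclase that makes cyclic AMP, rose in both and less in iWAT (1.71 in iWAT and 3.89 in BAT, difference -2.18 ± 0.32, adjusted p = 7.69e-05). Prkar1a, a regulatory subunit of protein kinase A, did the same (0.24 in iWAT and 0.94 in BAT), and Adora1, the adenosine receptor that restrains the cyclase, had 0.34 in iWAT, not called, and fell in BAT (-1.08). Npr3, the clearance receptor of natriuretic peptides, changed by -1.04 in iWAT and 2.58 in BAT, a difference of -3.62 ± 0.78, adjusted p = 0.00192. Of the 29 genes of this list 7 were positive and 6 negative, a share of 44.8% against 27.1% of all tested genes. Early regulators induced by cyclic AMP gave 2 positive and 0 negative differences among 22 (7 at an unadjusted p under 0.05), and none with limma-voom, with library totals, without cold BAT library 4, without thermoneutral BAT library 2 or without the 3 lymphocyte-rich libraries. They were Jun and Btg2, 9.09% of the list against 27.1% of all tested genes, and 4 were positive without thermoneutral BAT library 1.

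In the creatine and calcium cycling list Ckmt1 and Sln did not pass the filter. Of 16 tested genes 31.2% had a called difference, against 27.1% of all tested genes, with 1 positive and 4 negative. Beside Ckb these were Alpl, a phosphatase (-2.04 ± 0.30), Atp2a2, the calcium pump SERCA2 (0.96 in iWAT and 1.99 in BAT, difference -1.03 ± 0.16, adjusted p = 1.37e-04), and Ryr2, a calcium release channel at under 1 CPM in all groups, whose difference was not called in a fit of all 40 libraries or with a replicate block (adjusted p = 0.202 and 0.0752). The median difference of this list was -1.04 and turned to 0.50 without thermoneutral iWAT library 3, the library with 12931 CPM of muscle markers, and to 0.31 with limma-voom.

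The circadian clock differed between the depots in 11 of 19 genes, 8 positive and 3 negative, a share of 57.9% against 27.1% of all tested genes. In iWAT 7 rose and 2 fell, where 13.8% of all tested genes were higher and 6.94% lower. In BAT 6 rose and 10 fell, against 24.0% and 26.6% of all tested genes. The median changes were -0.10 in iWAT and -0.92 in BAT. Per3, a period protein of the negative limb, showed the largest difference. Per3 had 23.9, 20.2, 15.2, 28.4 and 18.9 CPM in the 5 cold iWAT libraries, against 25.4, 30.1, 35.5, 58.9 and 26.7 CPM in thermoneutral iWAT. Cold BAT had 3.22, 4.69, 4.40, 4.84 and 3.45 CPM, against 57.9, 47.9, 42.6, 52.9 and 30.4 CPM in thermoneutral BAT. Cold BAT libraries lay below all others, and in iWAT, where Per3 also fell, the groups overlapped, with a difference of 2.77 ± 0.33, adjusted p = 7.93e-06. Nr1d1 and Nr1d2, the nuclear receptors that repress Arntl, had differences of 1.61 ± 0.30 and 1.80 ± 0.22, and Dbp and Tef, transcription factors of the output, of 2.08 ± 0.45 and 1.47 ± 0.25. Each of these 4 fell in BAT, and Dbp in iWAT too. Arntl, of the positive limb, rose in iWAT (0.80) and more in BAT (2.33), a difference of -1.54 ± 0.33, adjusted p = 0.00212, and so did Npas2 of the same limb (-1.49 ± 0.39) and Cry1, a repressor of the negative limb (-0.86 ± 0.25). Clock, the partner of Arntl, rose in both (0.82 in iWAT and 0.92 in BAT), with an interval of the difference of -0.50 to 0.32. Without the 3 lymphocyte-rich iWAT libraries 5 were positive and 2 negative.

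Clock proteins act through short DNA elements, the E-box bound by Arntl and its partner and the D-box bound by Dbp, Tef and their relatives. The stretches from 250 bases before to 50 bases after the start of Per3, Tef and Cry1 (RefSeq, GRCm38.p6) are shown since their differences were positive for Per3 and Tef and negative for Cry1, and they hold such letters. Letters searched on both strands were CACGTG for the E-box and TTATGTAA or TTACGTAA for the D-box, and matches are in capitals. Those of Per3 (chr4:151044616-151044915, minus strand) are D-box letters, and those of Tef (first of 2 starts, chr15:81802423-81802722, plus strand) and Cry1 (chr10:85185005-85185304, minus strand) are E-box letters.
Per3: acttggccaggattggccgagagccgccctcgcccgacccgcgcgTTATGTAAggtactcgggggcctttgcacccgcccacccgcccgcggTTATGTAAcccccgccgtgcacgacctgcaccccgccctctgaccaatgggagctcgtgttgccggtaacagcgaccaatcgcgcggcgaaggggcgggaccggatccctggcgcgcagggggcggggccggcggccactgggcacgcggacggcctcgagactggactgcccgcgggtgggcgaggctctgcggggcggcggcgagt
Tef: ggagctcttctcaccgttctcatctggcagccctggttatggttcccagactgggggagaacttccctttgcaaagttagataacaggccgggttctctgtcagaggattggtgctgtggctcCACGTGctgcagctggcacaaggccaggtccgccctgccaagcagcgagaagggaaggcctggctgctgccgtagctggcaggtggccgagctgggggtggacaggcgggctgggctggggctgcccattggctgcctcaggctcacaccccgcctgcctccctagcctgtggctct
Cry1: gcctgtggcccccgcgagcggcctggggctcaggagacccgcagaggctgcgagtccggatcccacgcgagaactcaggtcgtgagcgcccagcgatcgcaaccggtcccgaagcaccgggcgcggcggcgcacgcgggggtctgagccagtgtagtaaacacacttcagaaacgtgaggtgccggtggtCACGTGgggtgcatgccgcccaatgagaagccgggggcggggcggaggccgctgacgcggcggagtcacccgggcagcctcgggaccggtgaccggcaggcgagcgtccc
Per3 held 2 D-box matches and Tef and Cry1 1 E-box match each, none overlapping another searched motif. Of all 32851 promoters of the RefSeq set 1.06% held D-box letters and 7.15% E-box letters. Of the 16 clock genes with an entry, 1 held the D-box and 5 the E-box.

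Dio2 is shown as a gene that rose in both depots and whose promoter holds the full cyclic AMP response element, TGACGTCA, in capitals (chr12:90738989-90739288, minus strand).
Dio2: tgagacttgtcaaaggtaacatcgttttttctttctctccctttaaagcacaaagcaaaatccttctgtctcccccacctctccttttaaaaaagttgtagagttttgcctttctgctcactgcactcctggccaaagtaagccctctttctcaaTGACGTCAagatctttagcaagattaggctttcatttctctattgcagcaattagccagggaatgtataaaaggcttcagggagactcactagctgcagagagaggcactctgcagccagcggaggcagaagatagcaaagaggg
That element stood in 1.79% of all promoters of the RefSeq set. Matches are letters only, and no binding was measured. Of all tested genes 70.6% had an entry, and 71.6% of the positive and 78.3% of the negative genes, so a comparison of motif shares between these sets is void for lack of sequences.

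Among secreted proteins 8 of 24 tested genes were positive and 1 negative, a share of 37.5% against 27.1% of all tested genes. Il6 did not pass the filter. Adipoq, adiponectin, stood at 1764 ± 304 CPM in cold iWAT and 1636 ± 384 CPM in thermoneutral iWAT, against 263 ± 71.2 CPM in cold BAT and 927 ± 139 CPM in thermoneutral BAT, a difference of 1.93 ± 0.28, adjusted p = 6.32e-05. Igf1, insulin-like growth factor 1 (1.63 ± 0.34), and Vegfb, a vascular growth factor (0.96 ± 0.19), were positive likewise through falls in BAT. Cxcl14, a chemokine made by brown fat, was the negative member (-1.12 in iWAT and 0.99 in BAT), and 4 were negative without cold iWAT library 3. In insulin signalling Pik3r1, the regulatory subunit of PI 3-kinase, had 0.71 in iWAT, not called, and fell in BAT (-1.37) (difference 2.08 ± 0.43, adjusted p = 0.00134), and Irs1, a substrate of the insulin receptor, did so too (0.97 ± 0.21). Pdpk1, a kinase upstream of Akt, rose less in iWAT (0.37 in iWAT and 1.38 in BAT). This list had 3 positive and 4 negative differences among 18 genes, a share of 38.9% against 27.1% of all tested genes.

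Fewer interferon, matrix and cell cycle genes differed, at 5.00%, 13.6% and 19.2% of the members against 27.1% of all tested genes. Among interferon genes 7 of 20 were lower in cold iWAT and 11 in cold BAT, with 1 positive and 0 negative differences by edgeR (5 at an unadjusted p under 0.05, 4 positive by limma-voom and 7 without cold BAT library 2). Extracellular matrix had 1 positive and 2 negative differences among 22 genes, Eln, elastin, rising in both and less in iWAT (0.88 in iWAT and 2.10 in BAT), and 5 were negative without cold iWAT library 3. In the cell cycle list of 26 genes, 7 were lower in cold iWAT and 12 lower and 2 higher in cold BAT, with 2 positive and 3 negative differences, among them Ccnd1, cyclin D1, lower in cold iWAT (-1.56) and not called in BAT (0.48). Among ketone body genes and acyl-CoA thioesterases 1 of 15 was positive and 3 negative, a share of 26.7%, near the 27.1% of all tested genes. The negative count was 5 without cold iWAT library 1. Acot1, a cytosolic thioesterase with near-identical relatives whose counts may mix, changed by 2.91 in iWAT and 6.77 in BAT.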

How the data were processed

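The values are expected counts per gene symbol, deposited by the authors as whole numbers in 1 table for 40 libraries. The submitters' processing notes name, without their roles, the builds GRCm38 and GRCm39 and the tools STAR 2.7.8a, RSEM 1.3.0, FastQC and DESeq. Per the labels' protocols the TruSeq RNA v2 kit was used, which does not mark strand, so overlapping and antisense genes cannot be told apart. For 78 symbols shared by several genes the counts were summed. From these counts, 20 libraries were tested with edgeR 4.0.16 (robust quasi-likelihood F-test, R 4.3.3) on 4 group means, after a filter (minimum count of 10, minimum total of 15) and TMM scaling. P-values were adjusted by Benjamini-Hochberg over all 17510 genes, and a gene was called at an adjusted p under 0.05. Intervals are 95% intervals. Alternatives were limma 3.58.1 (voom), DESeq2 1.42.0, other scalings and filters, covariates, a replicate block, a fit of all 40 libraries and leaving out single libraries. The test was first tried on simulated data.

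The gene lists, members and naming rule were chosen with earlier results of these data known. Named genes, predicted ones left aside, were the 8 largest called differences on each side (at least 10 CPM in the highest group mean and no overlap of cold and thermoneutral libraries in at least 1 depot), the 8 of smallest p in each opposite class and the 6 narrowest intervals (both at least 10 CPM in a group), up to 4 called members of smallest p per list, 12 genes of interest and the most abundant markers. Other list members named, such as Cyc1, Dgat1, Cpt1b, Ehhadh, Asns, Fdft1, Npr3, Kcnk3, Arntl, Npas2, Cry1, Clock, Dbp, Igf1, Cxcl14 and Adrb3, and Csrp1, were chosen after their values were seen. The 3 lymphocyte-rich iWAT libraries (cold 4, thermoneutral 1 and 5) were left out together as an alternative chosen after seeing the data. Results of a few named genes are not reported here.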

Additional observations from a re-analysis of the deposited data

Results flagged for a closer look

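In a check of 112 sets of 5 libraries (15 genes and the marker sums), 9 had 1 library far from the others, and chance gives about 1 in 20, or 5.60. Ucp1 was far in thermoneutral iWAT library 1, at 5.78 CPM, against 0.529 to 1.31 CPM in the other 4. Pnpla2 was far in thermoneutral iWAT library 2, at 1838 CPM, against 1071 to 1168 CPM.

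Among marker sums, skeletal muscle stood at 12931 CPM in thermoneutral iWAT library 3, against 4.27 to 100 CPM in the other 4. Macrophage markers stood at 426 CPM in cold BAT library 2, against 72.7 to 121 CPM. Neutrophil markers stood at 16.4 CPM in thermoneutral iWAT library 1, against 1.15 to 5.39 CPM, and at 5.60 CPM in thermoneutral BAT library 1, against 0.669 to 1.71 CPM. Epithelial markers stood at 86.9 CPM in cold iWAT library 4, against 1.98 to 25.1 CPM. Fibroblast and progenitor markers stood at 444 CPM in thermoneutral BAT library 1, against 253 to 290 CPM. Smooth muscle and pericyte markers stood at 343 CPM in cold BAT library 4, against 394 to 409 CPM. The cold effect itself differed between the depots for 4741 genes by the test of that difference.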

How the results depend on the processing

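Of 125 named genes with a called difference, 109 stayed called with the same sign under each of the 32 alternatives that tested them, and none reversed. The fit without the mitochondrial genome tested 121 of the 125. Most of these named genes were named for a small p or a large difference in these data, so they do not stand for all genes. Of all called differences 77.8% were kept in a fit of all 40 libraries and 79.4% with no filter on low counts. Library totals kept 64.5% of the positive ones. Library totals in place of TMM gave 1736 positive differences, 81 genes higher in cold iWAT and lower in cold BAT, 150 genes of the reverse order and 4 like-changed genes. Those 3 classes held 99, 30 and 13 genes with no filter on low counts, and 97, 36 and 5 in a fit of all 40 libraries. DESeq2 gave 115 genes lower in cold iWAT and higher in cold BAT, the muscle covariate 13 like-changed genes, and leaving out the 3 lymphocyte-rich libraries 103 genes higher in cold iWAT and lower in cold BAT. Leaving out 1 library at a time gave 102 to 183, 37 to 105 and 4 to 15 genes in the 3 classes. With no filter 803 genes were lower in cold iWAT. The lymphocyte covariate kept 50.9% of the genes higher in cold iWAT and lower in cold BAT, and 48.3% of those of the reverse order. The causes were not tested. A replicate block gave 2606 positive and 2010 negative differences, with Fasn among the called genes (adjusted p = 0.00434) and Ryr2 not (0.0752). The labels do not pair libraries of equal number. Their deviations from the group means correlated at -0.0342 to 0.518, over 0.1 in 5 of 10 pairs. The mean was 0.165, against -0.0415 for libraries of unequal number, so a shared animal remains possible and the main fit did not model it. Genes at a few counts per library, such as Cpne5 outside cold BAT, limit how well a fold is known.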
